A study of Mus musculus with 12 samples.

Results

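The comparison described here asks what daily separation from the dam left in the adult hippocampus of mice that had all been exposed to ethanol before birth. It sets the 3 ethanol + stress libraries against the 3 ethanol libraries, 6 of the 12 RNA-Seq libraries of the study, and the members were taken by their labels. Of 35580 genes with a matched transcript, the 14455 with a mean of 1 TPM or more over the 12 libraries were compared, and 13872 of these are protein-coding. TPM is a relative abundance corrected for transcript length, and a gene's value is the sum over its transcripts. Each library came from the hippocampus of 1 male mouse at postnatal day 70, of the strain labelled C57BL/6 and given as C57BL/6J in the study's methods. Dams of both groups had free access to 10% ethanol in water beside plain water. It was available through gestation and, by the study's methods, until postnatal day 10. Dams could thus still drink it during part of the separation period. Pups of the ethanol + stress group were also kept alone for 3 h of each day, from postnatal day 2 to 14, while ethanol pups stayed in the nest. The stress group had the same separation without ethanol and the control group had neither, with 3 mice in each. The pups for separation were drawn from within each litter, and the litter of each sequenced mouse is not given in the sources used here, so mice of different groups may be littermates. Intake was voluntary and blood ethanol was not measured.

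Early separation is a stressor that acts through the hypothalamic, pituitary and adrenal axis. Corticosteroids released by this axis reach the hippocampus, which is rich in both of their receptors, Nr3c1 (glucocorticoid receptor) and Nr3c2 (mineralocorticoid receptor), and induce targets such as Sgk1, Fkbp5, Klf15 and the metallothioneins. Immediate early genes such as Fos, Arc and Egr1 report recent neuronal activity. In whole tissue, fewer cells of a type and less RNA per cell cannot be told apart.

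The libraries were of similar depth but not of similar composition. The recovered depth was 12160000 to 14900000 read pairs in these 6 libraries. On the first principal component, which held 22.62% of the variance, ethanol 2 and ethanol + stress 2 and 3 lay at 29.7, 29.0 and 24.2, and ethanol 3 and ethanol + stress 1 at -25.6 and -17.0. Genes with transcripts of 400 to under 1000 bp lay 0.298, 0.279 and 0.242 above their mean (median, log2 scale) in the first 3 of these libraries, and 0.248 and 0.194 below it in the other two. This difference in transcript length crosses the groups, with 1 ethanol and 2 ethanol + stress libraries on one side.

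**Figure D1:**
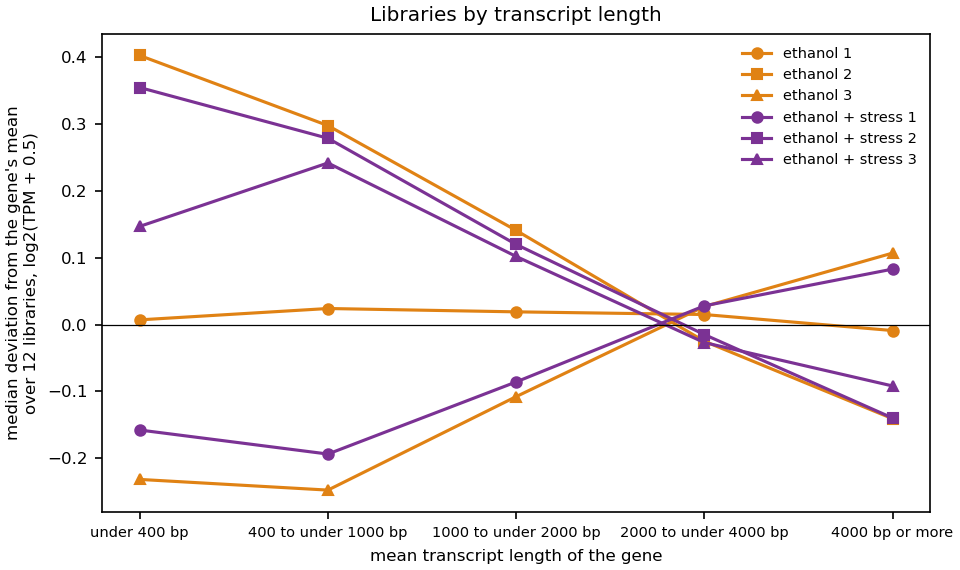
Median deviation of genes from their own mean over the 12 libraries (vertical axis, log2 of TPM + 0.5) by mean transcript length of the gene (horizontal axis), 1 line per library, orange for ethanol and purple for ethanol + stress. Short transcripts lie high in ethanol 2 and in ethanol + stress 2 and 3, and low in ethanol 3 and ethanol + stress 1.

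No gene differed between ethanol + stress and ethanol mice after adjustment for the number of genes. The lowest Benjamini-Hochberg adjusted p of the limma test was 0.999, and 411 genes had an unadjusted p under 0.05. At the unadjusted p of 0.01 that the study used for its lists, 77 genes (0.533%) were called, fewer than the 145 that 1 gene in every 100 tested comes to. Of these, 41 (0.284%) were higher and 36 (0.249%) lower in ethanol + stress. Leaving out ethanol 2 or ethanol + stress 1 gave 194 and 214 calls, more than 145. The study's lists hold transcripts tested with sleuth against control, so their unit, test and contrast differ from those here. Below, differences are given on the log2 scale of TPM + 0.5 with their SE (n = 3 mice in each group), and "called" means only that the unadjusted two-sided p of limma was under 0.01. The adjusted p of each gene named was 0.999 or more. The called genes differed by a median of 0.61 on the log2 scale in both directions, and 60 of the 77 by less than 1. The 3 values of one group lay wholly outside those of the other in 72 of them. Among all tested genes, 394 (2.73%) were higher and 417 (2.88%) lower in this sense. With 3 mice against 3, an exact permutation test of a single gene cannot go below p = 0.1, and every gene whose groups do not overlap has that value.

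Many calls rested on short transcripts. Of the 77 genes, 11 (14.3%) had a mean transcript length under 400 bp, against 2.08% of tested genes, 11 (14.3%) were pseudogenes, against 3.92%, and 8 (10.4%) were listed at 0 in at least 1 of the 6 libraries, against 1.6%. When transcripts under 1000 bp were left out of the gene sums, an alternative chosen after the values were seen, 59 of the 77 genes could be tested again and 15 of them were still called, among 47 calls in 12858 genes. These 15 are Klf15, Sgms1, Tmem119, Fli1 and Thbs4, which were higher in ethanol + stress, and Cplx3, Phf13, Ccn1, Polr2a, Bche, Sncb, Chrm4, Plekha7, Zfp30 and Tubb4a, which were lower. With only transcripts under 400 bp left out, 47 of 65 were still called.

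Of the genes higher in ethanol + stress, Klf15, Sgms1 and Tmem119 kept their call without short transcripts. Klf15, a transcription factor induced by glucocorticoids (GRCm38 chr6:90462576-90475238), had 14.9, 18.6 and 15.9 TPM in the ethanol mice and 21.1, 24.6 and 21.5 TPM in the ethanol + stress mice. The groups did not overlap, and the difference was 0.43 ± 0.11 (log2, SE, n = 3 each). The call was lost when ethanol 1 or ethanol + stress 2 was left out, with a difference of 0.37 in either case. Sgms1, which makes sphingomyelin from ceramide, had 26.2, 26.6 and 26.0 TPM in ethanol and 34.9, 33.8 and 34.2 TPM in ethanol + stress. The spread within each group was small, with means of 26.3 ± 0.318 and 34.3 ± 0.545 TPM (SD, n = 3), and the difference was 0.38 ± 0.09. After rescaling of the libraries to a common total it was 0.32 and not called.

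Tmem119, a surface protein that marks resident microglia (chr5:113793729-113800516), had 17.6, 15.8 and 13.8 TPM in ethanol and 20.1, 22.8 and 22.7 TPM in ethanol + stress, a difference of 0.47 ± 0.11. A short transcript of 336 bp was listed at 0 in all 3 ethanol mice, and without transcripts under 1000 bp the difference was 0.39 ± 0.11 and still called. It was the 1 called gene of 10 microglial markers, beside 0.533% of all tested genes called. Of the others, Csf1r, the receptor that keeps microglia alive, did not overlap between groups (a difference of 0.16, not called). With Tmem119 this made 2 of 10 higher without overlap, beside 2.73% of all tested genes. P2ry12, a purine receptor of resting microglia, was at -0.08. The median over the list was 0.24, beside a median of 0 over all tested genes, and the summed markers ran from 430.5 to 620.6 TPM in ethanol and from 509.9 to 706.9 TPM in ethanol + stress. Summed astrocyte markers (2494 to 3659 against 2620 to 3924 TPM) and myelin markers (3035 to 5664 against 3953 to 6519 TPM) also overlapped, and all 3 sums were lowest in ethanol 3 and ethanol + stress 1 of their groups. Whether these libraries' composition had a part in the Tmem119 difference was not tested. With the length trend of every library removed, the gene was still called.

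First by p among the higher genes was Plin3, which coats lipid droplets (chr17:56277476-56292873). Its sums were 15.9, 17.4 and 14.8 TPM in ethanol and 22.03, 22.97 and 22.41 TPM in ethanol + stress, a difference of 0.48 ± 0.10. The difference was uneven between its transcripts. The transcript of 3645 bp with 8 exons had 10.1, 12.9 and 8.45 TPM in ethanol and 10.8, 13.1 and 13.7 TPM in ethanol + stress, and these overlap. The coding transcript of 562 bp had 5.82, 4.55 and 6.33 TPM against 11.2, 9.84 and 8.68 TPM, with no overlap. Without transcripts under 1000 bp the difference was 0.26 ± 0.14 and not called.

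Sinhcaf, a subunit of a histone deacetylase complex built on Sin3, showed the same pattern more strongly. Its sum was 5.45, 8.79 and 4.30 TPM in ethanol and 15.2, 13.2 and 14.9 TPM in ethanol + stress (1.21 ± 0.29). A noncoding transcript of 202 bp gave 2.30, 7.199 and 2.14 TPM of this in ethanol and 9.91, 10.2 and 12.2 TPM in ethanol + stress, while the coding transcript of 2697 bp gave 2.44, 0.961 and 1.76 against 3.15, 2.34 and 1.74 TPM. Vwf, the clotting glycoprotein of endothelial cells, was higher as a sum (3.43 ± 0.434 against 5.18 ± 0.457 TPM, SD, n = 3), but its 456 bp noncoding transcript was listed at 0 in every ethanol mouse, and without transcripts under 1000 bp the difference was 0.13 ± 0.15 and not called. Without ethanol 2 the sum differed by 0.44 and was not called either. Mean sums of Vwf in control and stress mice were 4.60 and 4.96 TPM, nearer to ethanol + stress than to ethanol. Mycbpap was higher as a sum at 1.13, 1.75 and 0.514 against 3.43, 2.50 and 3.03 TPM. Without transcripts under 1000 bp its difference was 0.64 ± 0.25 and not called. The remaining 3 of the 10 higher genes with the smallest p, Gm14269, Tma7-ps and Gm42642, are processed pseudogenes of 195 to 355 bp, whose reads may belong to their parent genes. Gm14269 was listed at 0 in all 3 ethanol mice and at 4.12, 3.92 and 1.14 TPM in ethanol + stress.

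**Figure D2:**
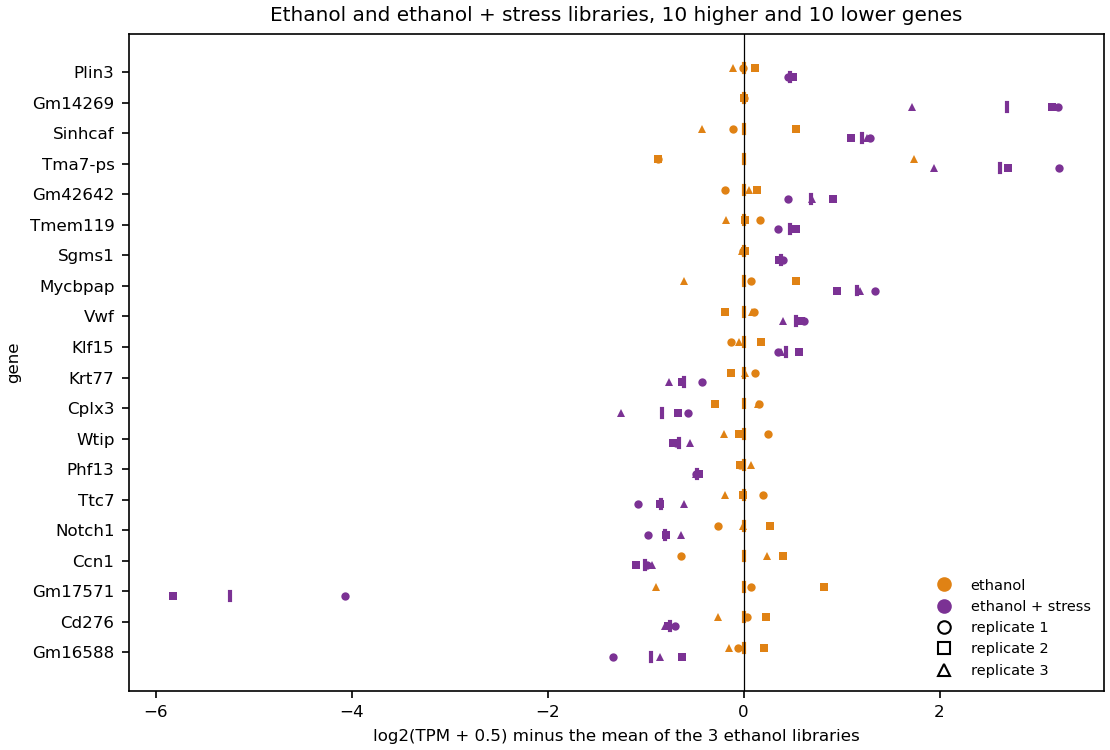
The 10 higher and 10 lower genes with the smallest p among those whose groups do not overlap, each library as log2(TPM + 0.5) minus the mean of the 3 ethanol libraries (horizontal axis). Orange marks ethanol and purple ethanol + stress, symbols give the replicate and short bars the group means; most of the differences lie within 1 of zero, and those of Gm14269, Tma7-ps and Gm17571, which are listed at 0 in some libraries, spread most.

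Cplx3, Phf13 and Ccn1 were lower in ethanol + stress and kept their call under all alternatives that gave them a value. Cplx3, a complexin that controls the release of synaptic vesicles through SNARE complexes (chr9:57599992-57606281), had 8.58, 6.14 and 8.51 TPM in ethanol and 4.99, 4.62 and 2.92 TPM in ethanol + stress. The groups did not overlap, and the difference was -0.83 ± 0.19. Its coding transcript of 2859 bp was also lower, at 4.85, 3.22 and 6.55 TPM against 2.61, 2.55 and 2.92 TPM. Phf13, a PHD finger protein that binds methylated histone H3 (chr4:151989633-151996258), has a single transcript and was even within groups, with 7.11, 7.14 and 7.74 TPM in ethanol and 5.09, 5.198 and 5.08 TPM in ethanol + stress (-0.48 ± 0.11). Ccn1, a secreted matrix protein and immediate early gene (chr3:145646976-145649981), had 2.89, 6.48 and 5.75 TPM in ethanol and 2.16, 1.97 and 2.27 TPM in ethanol + stress (-1.01 ± 0.25). Ethanol 1 lay closest to the ethanol + stress mice for this gene.

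Krt77, a keratin, was lower in both of its listed transcripts, with sums of 11.7, 9.74 and 10.8 TPM in ethanol and 7.84, 6.76 and 6.10 TPM in ethanol + stress (-0.61 ± 0.13). Its coding transcript alone gave -0.40 ± 0.14 and was not called. Wtip, a LIM domain protein, Ttc7, which helps bring a phosphatidylinositol kinase to the membrane, and Cd276, an immune checkpoint ligand, were called as sums (-0.66, -0.85 and -0.76), and were not called without transcripts under 1000 bp (-0.21, -0.29 and -0.25). Cd276 also lost its call without ethanol 2 (-0.64). Gm17571, annotated as coding but 90 bp long, and the pseudogene Gm16588 complete the 10 lower genes. Gm16588 (-0.942) lost its call without ethanol 2 (-0.839) or ethanol + stress 1 (-0.745). Its mean was 12.99 TPM in ethanol and 6.62 TPM in ethanol + stress, beside 6.78 TPM in control and 5.665 TPM in stress.

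The sum of Notch1, the receptor of a signalling pathway that keeps neural stem cells undifferentiated, was 11.2, 16.4 and 13.4 TPM in ethanol and 6.59, 7.55 and 8.46 TPM in ethanol + stress (-0.81 ± 0.19). Control mice had sums of 7.20, 11.46 and 7.02 TPM and stress mice 9.10, 7.50 and 9.39 TPM. The means of both lay nearer to ethanol + stress than to ethanol. The coding transcript of 9488 bp with 34 exons did not follow the sum, at 6.18, 5.60 and 5.71 TPM in ethanol and 6.14, 4.97 and 6.81 TPM in ethanol + stress. A noncoding transcript of 157 bp, shorter than the mean fragment, was given 4.37, 9.71 and 4.13 TPM in ethanol and 0 in all 3 ethanol + stress libraries. Without transcripts under 400 bp the difference was 0.10 ± 0.13 and without those under 1000 bp 0.01 ± 0.14, neither of them called, so that the direction of the sum turned.

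Other genes that kept their call without short transcripts were chosen after their values were seen. Chrm4, a muscarinic acetylcholine receptor, had 18.5, 15.7 and 21.5 TPM in ethanol and 14.7, 12.1 and 10.6 TPM in ethanol + stress (-0.56 ± 0.17). Bche, which hydrolyses choline esters, had 4.15, 4.95 and 3.68 against 2.90, 2.54 and 3.26 TPM (-0.48 ± 0.16). Polr2a, the catalytic subunit of RNA polymerase II, had 13.1, 13.1 and 12.6 TPM in ethanol and 10.5, 8.27 and 9.94 TPM in ethanol + stress (-0.42 ± 0.11). Tubb4a, a neural tubulin, had 142.6, 130.5 and 133.7 against 119.6, 99.3 and 105.5 TPM (-0.33 ± 0.10). Each of these calls was lost in several of the 6 fits without 1 compared library. Polr2a was no longer called without ethanol 1, ethanol 2 or ethanol + stress 2 (-0.32 to -0.41), and Chrm4 without ethanol 1, ethanol 3, ethanol + stress 2 or ethanol + stress 3 (-0.45 to -0.56). The same 4 libraries decided the call of Tubb4a (-0.27 to -0.34), and that of Bche was lost without ethanol 1, ethanol 2, ethanol + stress 1 or ethanol + stress 2 (-0.38 to -0.50). Sncb, Plekha7, Zfp30 and Thbs4 were also called in 2 of the 6 fits.

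The metallothioneins, small proteins that bind zinc and copper, gave the largest difference in TPM among the called genes named here, and were also picked out after their values were seen. Mt3, Mt2 and Mt1 follow each other on the plus strand of chromosome 8, and Mt1 and Mt2 are induced through metal response elements. The windows from 250 bases before to 50 after each RefSeq start (GRCm38.p6) are shown because Mt1 and Mt2 were called and Mt3 is their neighbour, with the response element cores TGCGCNC and TGCACNC in capitals on either strand.
Mt1, chr8:94178839-94179138: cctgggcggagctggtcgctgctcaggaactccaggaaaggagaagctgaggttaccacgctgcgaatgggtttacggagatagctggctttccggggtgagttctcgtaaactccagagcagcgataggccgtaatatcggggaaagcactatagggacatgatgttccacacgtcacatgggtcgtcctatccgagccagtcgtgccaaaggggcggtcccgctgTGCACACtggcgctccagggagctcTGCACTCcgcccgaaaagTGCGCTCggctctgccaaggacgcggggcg
Mt2, chr8:94172368-94172667: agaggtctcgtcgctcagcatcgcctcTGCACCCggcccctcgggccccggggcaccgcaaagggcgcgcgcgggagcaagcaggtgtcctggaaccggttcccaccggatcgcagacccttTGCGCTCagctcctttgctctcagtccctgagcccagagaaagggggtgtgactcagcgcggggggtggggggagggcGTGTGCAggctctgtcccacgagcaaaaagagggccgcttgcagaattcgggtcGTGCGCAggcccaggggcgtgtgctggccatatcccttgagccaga
Mt3, chr8:94152357-94152656: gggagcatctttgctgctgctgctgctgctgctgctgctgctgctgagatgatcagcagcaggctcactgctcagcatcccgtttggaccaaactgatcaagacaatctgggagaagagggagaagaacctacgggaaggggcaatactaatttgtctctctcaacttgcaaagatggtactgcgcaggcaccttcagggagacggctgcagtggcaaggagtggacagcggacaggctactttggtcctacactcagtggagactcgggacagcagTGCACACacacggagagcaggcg
The Mt1 window holds 3 cores, the Mt2 window 4 and the Mt3 window 1. Of 32851 windows of this length, 25.7% hold at least 1 core, 1.97% at least 3 and 0.517% at least 4. A match describes these letters and is not a measured site.

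Mt1 had 421.5, 204.2 and 126.4 TPM in the ethanol mice and 660.9, 897.1 and 975.6 TPM in the ethanol + stress mice. The groups did not overlap, although ethanol mice differed more than 3-fold among themselves, and the difference was 1.91 ± 0.54 (log2, SE). Without ethanol 2, ethanol 3, ethanol + stress 2 or ethanol + stress 3 it was 1.504 to 1.855 and no longer called. Mt2 had 186.6, 204.9 and 110.4 against 237.8, 294.9 and 365.2 TPM (0.86 ± 0.28), and it kept its call in 13 of the 23 alternatives that gave it a value. Mt2 was no longer called without ethanol 1, ethanol 3, ethanol + stress 2 or ethanol + stress 3 (0.59 to 0.97). Mt3, the form of neurons and astrocytes, overlapped between groups, with 812.8, 883.0 and 533.9 against 811.9, 1224.0 and 1104.0 TPM (0.51 ± 0.20, not called). All 3 genes have short transcripts (means of 510 to 551 bp), the class that lay high in ethanol + stress 2 and 3, and with the length trend removed all 3 were called, Mt3 at 0.42. Mt3 was also called with a common total (0.45), without ethanol 2 (0.65) and without ethanol + stress 1 (0.68), and it was at 0.28 and not called without ethanol 3. In stress against control, Mt1 differed by -0.01 ± 0.54 and Mt2 by 0.00 ± 0.28.

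**Figure D3:**
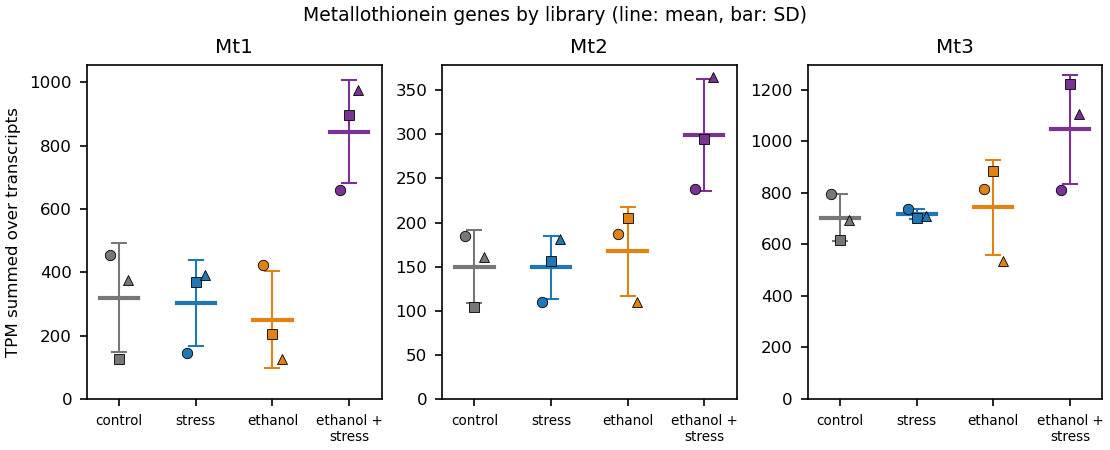
TPM of Mt1, Mt2 and Mt3 in each of the 12 libraries (vertical axis from 0), by group, with the mean as a line and the SD as a bar (n = 3). For Mt1 the 3 ethanol + stress mice sit between 660.9 and 975.6 TPM, above all 9 other mice, and for Mt3 the groups overlap.

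None of the genes of the corticosteroid system was called. Nr3c1 had 48.3, 45.2 and 51.1 TPM in ethanol and 50.7, 45.5 and 47.5 TPM in ethanol + stress (-0.01 ± 0.09), and Nr3c2 differed by -0.01 ± 0.13. Crh, the peptide that starts the axis, differed by 0.26 ± 0.23 and its receptor Crhr1 by -0.14 ± 0.19. Among 18 glucocorticoid-induced targets, a list that does not hold Klf15, Mt1 or Mt2, none was called, with a median of 0.06 and a range of -0.68 to 1.58. Sgk1, Mertk and Lcn2 lay higher without overlap and Dusp1 lower, 3 and 1 of 18, beside 2.73% and 2.88% of all tested genes. The target with the smallest p, Sgk1, a kinase that regulates ion channels, had 53.0, 50.3 and 41.1 TPM in ethanol and 77.2, 109.6 and 55.5 TPM in ethanol + stress, without overlap (0.69 ± 0.24, not called). Ethanol + stress 3 lay close to the ethanol mice, and without it the difference was 0.94 and was called, while without ethanol + stress 2 it was 0.45 and not called. Without transcripts under 400 bp the Sgk1 groups overlapped, with 50.03, 50.32 and 41.1 TPM against 77.2, 103.4 and 43.6 TPM (0.58, not called). Fkbp5, which restrains the glucocorticoid receptor, differed by 0.11 ± 0.16, and Bdnf, a neurotrophin, by 0.18 ± 0.17.

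Immediate early genes, in a list that does not hold Ccn1, had a median of -0.36 over 18 tested members, beside 0 over all genes, and none of the 18 was called. Fos had 10.8, 19.1 and 32.0 TPM in ethanol and 8.18, 14.6 and 5.74 TPM in ethanol + stress, an overlap, with a difference of -1.04 ± 0.50 (-0.67 without ethanol 3). Dusp1, a phosphatase that ends MAP kinase signalling, was the 1 member whose groups did not overlap, at 8.50, 11.5 and 13.2 against 5.99, 6.52 and 7.34 TPM (-0.68, not called), 1 of 18 beside 2.88% of all tested genes lower without overlap. Egr1 and Arc differed by -0.39 ± 0.25 and -0.36 ± 0.37 and overlapped, and these values rested on single libraries. Without 1 of the 6 compared libraries Egr1 ran from -0.14 (without ethanol 3) to -0.56 (without ethanol 1). Arc ran from -0.08 (without ethanol + stress 3) to -0.81 (without ethanol + stress 2). In the separate mice of stress against control, the same list had a median of -0.37 and 1 called member, which was lower, Nr4a2 (-0.79).

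Dnmt3a, which methylates DNA de novo, was the 1 called gene of 14 tested genes of the DNA methylation machinery, beside 0.533% of all tested genes called. It had 19.98, 22.2 and 24.3 TPM in ethanol and 15.4, 18.8 and 17.8 TPM in ethanol + stress (-0.34 ± 0.11), just inside the threshold, and it kept its call in 8 of 24 alternatives. The call was lost without ethanol 2, ethanol 3, ethanol + stress 1 or ethanol + stress 3 (-0.27 to -0.37). Its most abundant transcript, of 9685 bp, had 6.94, 7.13 and 9.22 against 8.05, 5.43 and 7.29 TPM, an overlap. Gadd45b, which takes part in active demethylation, did not overlap either (-0.53) and was not called. With Dnmt3a this made 2 of 14 lower without overlap, beside 2.88% of all tested genes. Col15a1, a basement membrane collagen, was the 1 called of 14 collagens (again beside 0.533%), with 2.58, 2.39 and 2.59 against 1.31, 0.72 and 0.604 TPM (-1.16 ± 0.33). Its coding transcript of 5172 bp was at 0.923, 0 and 0.51 against 0.768, 0.694 and 0.578 TPM, and without transcripts under 400 bp the gene differed by -0.66 ± 0.34, overlapped and was not called. The call was also lost without ethanol 1, ethanol 3, ethanol + stress 2 or ethanol + stress 3 (-1.02 to -1.15).

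The other lists held no called gene. Receptor lists lay slightly below 0, with medians of -0.16 for 6 NMDA receptor subunits, -0.08 for 9 AMPA and kainate subunits, -0.05 for 7 metabotropic glutamate receptors and -0.07 for 12 GABA-A subunits, and serotonin receptors lay at 0.01. Medians were 0.02 for the corticosteroid and CRH list, -0.01 for neurotrophins, 0.04 for synaptic scaffolds, -0.03 for histone deacetylases, -0.05 for clock genes, 0.05 for antioxidant enzymes, 0.08 for heat shock proteins, 0.07 for neurogenesis genes and 0.22 for interferon response genes. All 13 mitochondrially encoded genes were positive (median 0.19), as were 65 of 77 nuclear genes of oxidative phosphorylation (0.08) and 78 of 83 ribosomal protein genes (0.10). The sums of these lists overlapped between groups and moved with the libraries that stand apart. Ribosomal protein genes summed to 66800, 98170 and 53470 TPM in ethanol and 55500, 90050 and 88770 TPM in ethanol + stress. All genes with transcripts of 400 to under 1000 bp had a median difference of 0.085.

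Markers of the hippocampus were present in every library, and none of the marker lists apart from microglia held a called gene. Medians were -0.13 for CA1, 0.16 for CA3, 0.11 for dentate granule cells, -0.06 for interneurons, 0.21 for myelin, 0.02 for oligodendrocyte progenitors, 0.12 for astrocytes, 0.02 for endothelial cells and pericytes, -0.16 for erythroid cells, 0.11 for thalamus and -0.06 for striatum. Choroid plexus markers stood apart, with a median of 1.02 and 10 of 10 positive, and varied within groups. The median was 1.03 in stress against control, where Mt1 differed by -0.01. Their sums were 3550, 86.5 and 43.6 TPM in ethanol and 2331, 7274 and 210 TPM in ethanol + stress, led by Ttr, the transthyretin of that epithelium. In the ethanol mice Mt1 had the order of these sums, highest in ethanol 1 and lowest in ethanol 3, and in the other group ethanol + stress 3 had the highest Mt1 level and the lowest sum. The part of choroid plexus content in the Mt1 difference was not tested.

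**Figure D4:**
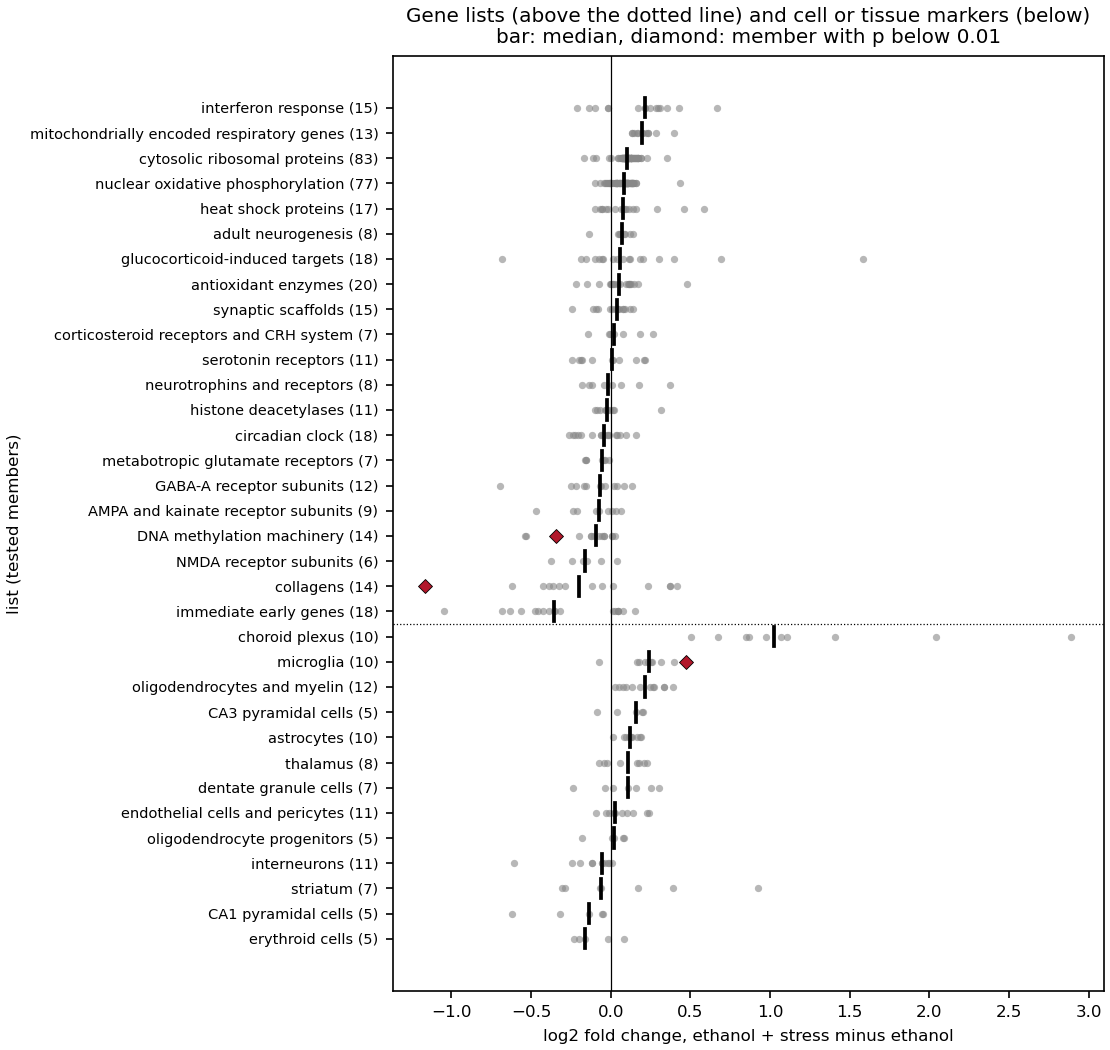
Difference of each tested member of the gene lists (above the dotted line) and marker lists (below) as log2 fold change of ethanol + stress minus ethanol (horizontal axis), with black bars for the medians and red diamonds for members with p under 0.01. Dnmt3a, Col15a1 and Tmem119 are the 3 called members, and choroid plexus markers lie furthest from zero.

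Separation was also given to mice without ethanol, so that stress against control repeats the contrast in the 6 other mice, with a spread estimated over all 4 groups. That comparison called 48 genes (0.332%), again none after adjustment (limma, Benjamini-Hochberg) and 243 at p under 0.05. The difference between the 2 separation effects, tested as an interaction, was called for 45 genes (0.311%), none after adjustment, with 274 at p under 0.05. Of the 77 genes called in ethanol-exposed mice, 41 (53.2%) had the same sign in stress against control, beside 56.1% of all tested genes, and 3 were called there too, Cplx3 and 4930469K13Rik, which were lower, and Gm14269, which was higher. Across all 14455 genes the 2 effects had a Pearson r of 0.103 and a Spearman rho of 0.143, given as a description, since genes are not independent replicates and share the length pattern of their libraries. Pearson r was 0.167 over the 14172 genes above 0 in all libraries, and 0.093 over all tested genes with the length trend removed.

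Among genes with no overlap, 16 were higher in both comparisons (4.06% of 394 and 3.19% of 501) and 19 lower in both (4.56% of 417 and 4.22% of 450). Of all tested genes, 3.47% were higher and 3.11% lower without overlap in stress against control, so that these shares lie near the background. Called genes that also did not overlap in the same direction between stress and control were Fli1, H2-Ab1 and Gm14269, higher, and Krt77, Cplx3, Phf13, Ccn1 and 4930469K13Rik, lower. These are 3 of the 41 genes called higher (7.32%) and 5 of the 36 called lower (13.9%), beside the same 3.47% and 3.11% of all tested genes. Calls use a spread taken over all 4 groups, control and stress among them, so all tested genes are not a matched reference here. In the 6 fits without 1 compared library, H2-Ab1 was called only without ethanol 3 (0.57 to 0.74 in the other fits), 4930469K13Rik only without ethanol 2 (-1.20 to -1.60 in the other fits), and Fli1 was not called without ethanol 3, ethanol + stress 1 or ethanol + stress 2 (0.45 each). Cplx3 was lower with either background, since control mice had 9.23, 7.52 and 8.87 TPM and stress mice 5.29, 5.38 and 5.78 TPM (-0.59 ± 0.19). Its 6 separated mice had 2.92 to 5.78 TPM and its 6 unseparated mice 6.14 to 9.23 TPM. Phf13 behaved alike, with 6.03, 6.65 and 7.25 TPM in control against 5.33, 5.18 and 5.38 TPM in stress (-0.30 ± 0.11), and Ccn1 had 5.44, 4.17 and 5.52 against 3.88, 2.75 and 3.59 TPM (-0.51 ± 0.25). Fli1, a transcription factor of endothelial and blood cells, had 2.75, 2.90 and 2.78 TPM in control against 3.33, 3.49 and 3.41 TPM in stress, and 3.40, 3.16 and 3.11 TPM in ethanol and 4.83, 4.80 and 4.35 TPM in ethanol + stress. H2-Ab1, a class II histocompatibility chain, had 1.67, 2.11 and 0.982 TPM in control against 2.62, 2.48 and 2.65 TPM in stress, beside 1.67, 1.29 and 2.12 TPM in ethanol and 3.23, 2.99 and 2.86 TPM in ethanol + stress. For Krt77 the gap was narrow, with a lowest control value of 9.906 TPM and a highest stress value of 9.796 TPM (-0.17 ± 0.13). The difference between the 2 backgrounds, the interaction, was -0.24 for Cplx3, -0.18 for Phf13 and -0.50 for Ccn1. It was called for none of the 8 genes, which does not show that the effects are equal. Hyal2 went the other way, called lower in ethanol + stress (-0.41 ± 0.12) but higher without overlap in stress. It had 10.83, 10.05 and 10.85 TPM in control against 14.67, 12.9 and 11.23 TPM in stress, and its interaction (-0.68 ± 0.17) was called.

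**Figure D5:**
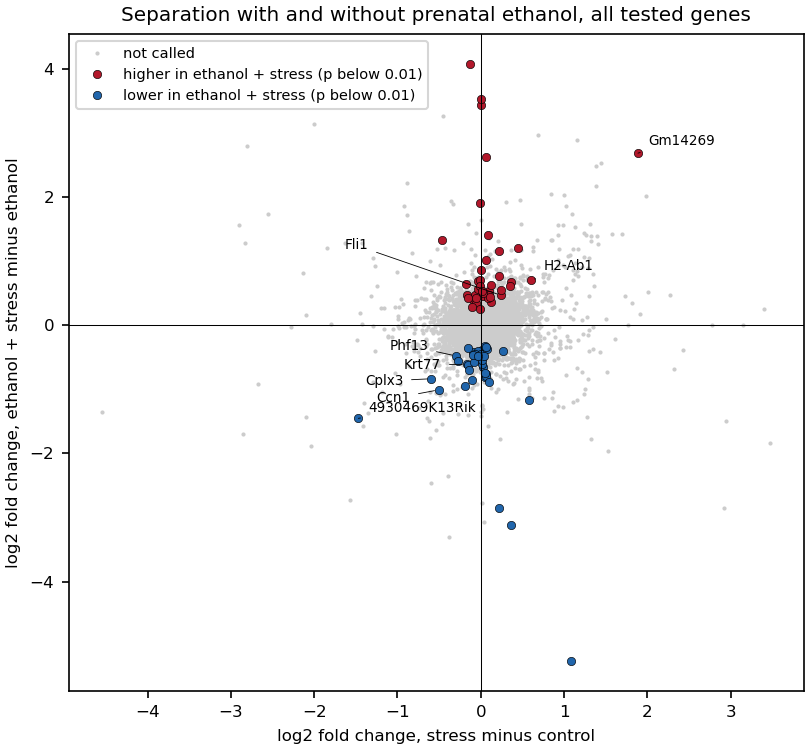
Log2 fold change of stress minus control (horizontal axis) against that of ethanol + stress minus ethanol (vertical axis) for the 14455 tested genes, grey where not called, red and blue where called higher or lower in ethanol + stress. The 8 labelled genes are called on the vertical axis and do not overlap in the same direction on the horizontal one, while most called genes lie close to zero on the horizontal axis.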

How the data were processed

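RNA-Seq values of 12 hippocampal libraries were used. The deposited values are a signal: by the submitters' processing notes and the study's methods, the authors pseudo-aligned read pairs from stranded, rRNA-depleted libraries to mouse transcripts (mm10) with kallisto and scaled the TPM between libraries with sleuth, versions not given in the sources used here. Their sums run from 889222.3 to 1173649.8 per library. The identifiers of 113580 out of 115270 transcripts are in GENCODE M21 (GRCm38), and these were summed per gene. Genes with a mean of 1 TPM or more went as log2(TPM + 0.5), which shrinks the differences of low genes, into limma 3.58.1 in R 4.3.3 (lmFit, eBayes with trend, 4 groups in 1 model, no replicate block, two-sided). Calls are at an unadjusted p under 0.01, beside Benjamini-Hochberg values over all tested genes. Tables were made with Python 3.11.15, pandas 2.3.3 and numpy 2.4.6, and plots with matplotlib 3.10.9.

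Named genes are the 10 higher and 10 lower with the smallest p among called genes whose groups do not overlap, called members of the 21 gene lists and 14 marker lists (at most 4 each), and 10 genes of the stress response, whatever their values. Mt1, Mt2 and Mt3 were added after their values were seen, which makes 35 named genes, 24 of them called. The groups compared, lists and tests were chosen with earlier results of these data known.

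TPM carry no depth, so a step worth 1 read pair was sought in the low values of single-transcript genes. Of these values, 78.85% to 83.49% per library came out within 0.1 of a whole read pair (20% would by chance), which gave 12040000 to 14900000 read pairs per library and fragment means of 195 to 207 bp. For named genes with a mean transcript length over 400 bp, 3 read pairs are worth 0.0626 to 1.28 TPM, a floor for counting error only. No floor was computed for the 5 shorter ones, where 1 read pair is worth more TPM. Alternatives were a pseudocount of 0.1 or 1, no filter, a minimum of 5 TPM, rescaling to a common total, median-of-ratios size factors, removal of each library's length trend, eBayes without trend, only the groups compared, a replicate block and leaving out each library. Leaving out transcripts under 400 or 1000 bp was added after the data were seen.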

Additional observations from a re-analysis of the deposited data

Results flagged for a closer look

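For 9 of the 35 named genes the separation effect differed between ethanol-exposed and unexposed mice at an unadjusted p under 0.01 (interaction test of limma). None did after Benjamini-Hochberg adjustment (adjusted p = 1.0 for each). These genes were named for their difference in the ethanol-exposed mice, which is one arm of the interaction, so the interaction is not independent of that choice. Over all tested genes, 0.311% passed the same unadjusted threshold. The interaction was 0.64 ± 0.14 for Plin3 (log2, SE), 0.59 ± 0.16 for Klf15, 0.54 ± 0.16 for Tmem119, 0.46 ± 0.13 for Sgms1 and 0.72 ± 0.23 for the pseudogene Gm42642. It was -0.69 ± 0.21 for Wtip, -0.85 ± 0.27 for Notch1, -1.74 ± 0.46 for Col15a1 and -6.33 ± 1.87 for Gm17571. Gm17571 was listed at 29.3, 49.4 and 14.7 TPM in ethanol, 1.18, 0 and 0 TPM in ethanol + stress, 0, 0 and 11.9 TPM in control against 0, 3.18 and 15.7 TPM in stress. For Klf15, Tmem119 and Sgms1 the stress mice (16.1 to 16.6, 16.4 to 17.4 and 25.6 to 28.5 TPM) lay within or near the range of the control mice.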

How the results depend on the processing

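Of the 24 named genes called, 8 kept their call under all of the 24 alternatives that gave them a value, and the direction turned for Notch1 alone, to 0.099 without transcripts under 400 bp and 0.011 without those under 1000 bp. The 77 calls (41 higher, 36 lower, 0 adjusted) became 186 (85, 101 and 5) without a filter, where the 5 adjusted calls were low genes listed at 0 in 1 group (Epo, Gm13670, Gm7847, Gm35876 and Gm48587), 46 (23 and 23) at 5 TPM, 49 (20 higher) with a common total and 47 (22 higher, 2 adjusted, Gm10964 and Gm49111) with only the groups compared. With a common total 40.8% of calls were higher, against 53.2%, and the median of all genes moved to -0.052. Without transcripts under 400 bp 56 genes were called (35 higher and 21 lower), and without those under 1000 bp 47 were called, 20 of them higher. Leaving out 1 library gave 52 to 214 calls (20 to 98 higher, 28 to 120 lower, 0 to 2 adjusted). The widest moves were without ethanol 2 (194 calls, 46 of them among the 77) and without ethanol + stress 1 (214, 50 among the 77), and higher calls fell to 22 without ethanol 3 and 20 without ethanol + stress 2. Stress against control gave 127 calls without a filter, 21 at 5 TPM, 75 with only the groups compared and 10 without transcripts under 1000 bp (41 to 64 leaving out 1 library). The interaction gave 131, 26 and, without transcripts under 1000 bp, 19 calls (35 to 89 leaving out 1 library). The causes were not tested. Deviations of same-numbered ethanol and ethanol + stress libraries correlated at -0.014, 0.2 and -0.122. A replicate block gave 73 calls, 55 of them among the 77. Whether replicate numbers pair the mice cannot be decided from these correlations, since libraries of unlike numbers reached 0.393 and -0.383. The spread between 3 mice, and transcripts near or below the fragment length, limit these values, and neither was compared with the counting error that depth sets.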
